A study of Mus musculus with 18 samples.

Results

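A set of 10 genes that encode hormones and granule proteins of enteroendocrine cells was followed through 18 RNA-Seq libraries of mouse colon crypt epithelium. They were chosen by symbol, as Chga, Chgb, Gcg, Pyy, Insl5, Tph1, Sct, Cck, Nts and Sst, and all 10 were found among the 24047 genes of the count table. The libraries fell into 6 groups of 3. WT and Ern2-/- mice, the latter a whole-body deletion line on C57BL/6 that lacks ERN2/IRE1β, an endoplasmic reticulum stress sensor of mucosal epithelia, were each sampled in 3 microbial states. GF mice were germ free. COLONIZED mice were germ-free mice that received 1 gavage of cecal homogenate from conventional WT donors and were examined 14 days later, and their crypts came from the distal colon that histology had left. CONV mice were kept in a specific pathogen-free facility with their own microbiota. Crypts were released with EDTA and caught on a strainer. The age of the mice was not given in the sources used here. The study describes its RNA-Seq points of CONV mice as single mice. For the other groups the sources used here give replicate numbers alone, and p-values measure only the spread between these libraries. The Ern2-/- line came from another laboratory.

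Enteroendocrine cells are scattered hormone-producing cells of the gut epithelium that store peptides and amines in secretory granules and release them on luminal and nutrient signals. In the colon the main classes are enterochromaffin cells, which make serotonin, L cells, which make glucagon-like peptides, peptide YY and insulin-like peptide 5, and somatostatin-producing D cells. Transcripts that mark these cells form a small part of crypt RNA, and a bulk library cannot tell fewer cells of a type from less RNA per cell.

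Several libraries stood apart from their groups or went against their labels. Library totals ran from about 5865620 to 23154500 counts, and the lowest was in the CONV-Ern2-/- group. Counts of Ern2, the deleted gene, were 1909 to 3100 normalized counts in the 9 WT libraries and 386 to 3336 in the 9 libraries labelled Ern2-/-, and the ranges overlapped. Counts per gene do not separate exons, so a deletion that leaves a transcript would not show, and the genotype words below are those of the labels. GF-Ern2-/- replicate 2 had 386 normalized counts of Ern2, 9756 of the mucin Muc2 against 25790 and 39100 in its group, and 3299 of the ileal bile acid protein gene Fabp6 against 94.7 and 125. CONV-WT replicate 3 had 25213 of Muc2 against 223342 and 194319, and 269449 of Car1, a carbonic anhydrase of mature absorptive colonocytes, against 22612 and 53108. GF-WT replicate 3 stood apart in Chga, Chgb and Tph1, as given below, and was also the highest of its group in Car1, at 100509 against 13732 and 72496, and in the ileal bile acid transporter gene Slc10a2, at 1826 against 83.0 and 948. The sum of 10 small intestine and ileum markers, 70.8% of which was Fabp2, was 52888 normalized counts in GF-Ern2-/- replicate 2 against 5113 and 11494 in its group, and 19559 in GF-WT replicate 3 against 3482 and 12575. It was 17932 to 20729 in CONV-Ern2-/-, 5492 to 12191 in CONV-WT, and 3710.0 to 7477 in the COLONIZED libraries. The summed distal Hox genes, of which Hoxb13 marks the distal colon, were highest in germ-free libraries, at 4371 to 8482 normalized counts for WT and 4303 to 8754 for Ern2-/-. Colonized libraries had 2667 to 4714 (WT) and 1529 to 4526 (Ern2-/-), and conventional ones had 886 to 3183 (WT) and 168 to 1879.6 (Ern2-/-). Their part in the results was not tested. Sex was not balanced: Y-linked transcripts were present in 0 of 3 GF-WT and all 3 CONV-Ern2-/- libraries, in 1 of 3 for CONV-WT, and in 2 of 3 for each remaining group.

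Markers of other cells that make some of the same transcripts were low, apart from Cela1 of the pancreatic list. Of 13 enteric neuron and glia genes, 2 reached a mean of 10 normalized counts, and the sum of the 13 was 62.1 to 155 in a library. By group this sum was 70.7 to 77.8 in GF-WT, 92.5 to 103 in COLONIZED-WT and 62.1 to 140 in CONV-WT. With the Ern2-/- label it was 67.2 to 73.8, 91.3 to 155 and 77.8 to 97.1 in that order. Neither COLONIZED group overlapped its GF group, and the part of these genes in the results was not tested. Of 10 mast cell genes, 1 reached that mean and 2 had no count at all. The insulin genes Ins1 and Ins2 had no count in any library, and 99.8% of the pancreatic list was Cela1. Group means of Cela1 were 5558 normalized counts in GF-WT, 2752 in COLONIZED-WT and 1915 in CONV-WT. With the Ern2-/- label they were 5858, 2485 and 1116 in that order. The part of Cela1 in the results was not tested. The summed mesenchymal genes were 22.1 to 81.3 in the GF and COLONIZED groups, 37.7 to 325 in CONV-WT and 123 to 235 in CONV-Ern2-/-.

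Per length, Pyy, which encodes peptide YY, was the highest of the 10 genes, at a mean of 45.6 RPKM (reads per kilobase of annotated exon, scaled to the library total) over the 18 libraries. Insl5, the gene for insulin-like peptide 5, followed at 27.4, and Chgb, which encodes chromogranin B of the granule core, at 26.6. Gcg, which encodes preproglucagon, was at 19.9, Sct, the secretin gene, at 18.0, and Chga, which encodes chromogranin A, at 12.9. Sst, the somatostatin gene, was at 7.44, Nts, the neurotensin gene, at 4.37, Tph1, which encodes tryptophan hydroxylase 1, the rate-limiting enzyme of serotonin synthesis outside the nervous system, at 2.19, and Cck, the cholecystokinin gene, at 0.890. The genes differed widely in how much they varied: the highest library exceeded the lowest by 5.75-fold for Gcg, 102-fold for Insl5 and 148-fold for Nts. Some of the lowest values rest on few reads, since Insl5, Cck and Nts each had a library with 3 counts. When groups were ordered by their mean, 7 of the 50 pairs of neighbouring groups did not overlap, and the others overlapped. The share of such pairs over all genes was not computed, so this count shows nothing particular to the 10 genes.

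**Figure D1:**
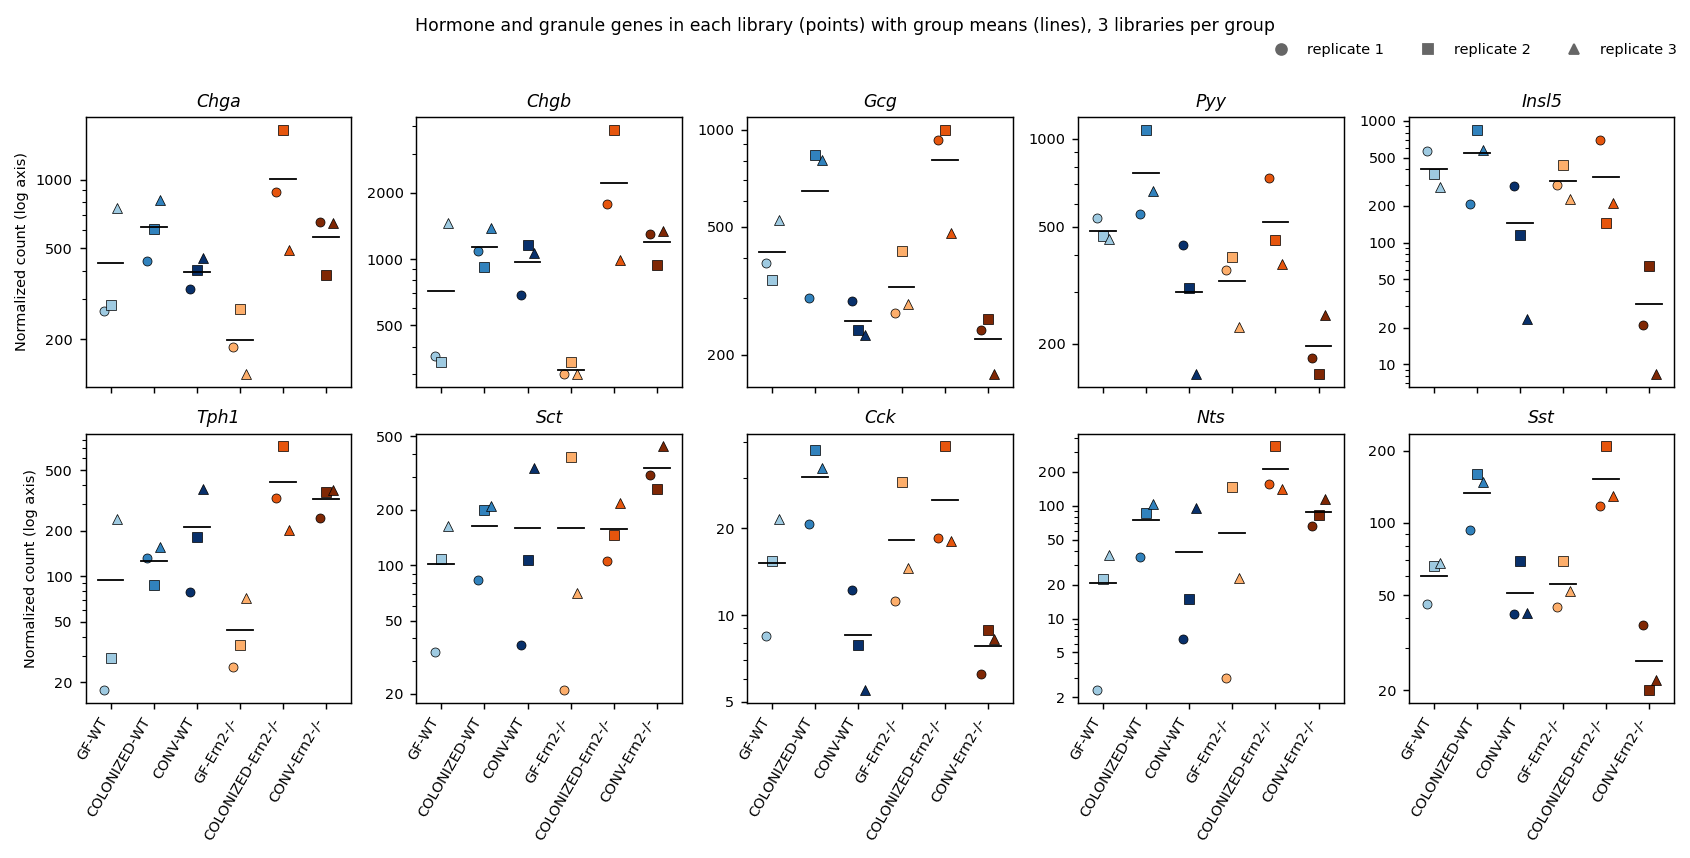
Normalized counts (log axis) of the 10 genes in each of 18 libraries, with 1 panel per gene, points for libraries by replicate number and lines for the mean of 3. Chgb lies between 299.8 and 339.9 in all 3 GF-Ern2-/- libraries and between 938 and 3867 in the 6 other libraries labelled Ern2-/-, while GF-WT replicate 3 sits at 1454 against 363 and 342 in its group.

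In GENCODE coordinates on the GRCm38 (mm10) assembly Chga spans chr12:102554969-102565028, Chgb chr2:132781278-132795079, Tph1 chr7:46644641-46672537, Sst chr16:23889573-23890958, Gcg chr2:62474530-62483650 and Insl5 chr4:103017872-103026842. The promoters of these 6 genes are shown because these genes carry most of the calls that follow: Chga, Chgb and Tph1 were called higher in both comparisons of Ern2-/- libraries with germ-free ones, and Gcg, Insl5 and Sst were called lower in CONV-Ern2-/- than in COLONIZED-Ern2-/-, as was Pyy. Gcg and Sst were also called higher after colonization. Each covers 250 bases before to 50 bases after a transcript start in RefSeq on GRCm38.p6, written 5′ to 3′ on the strand of the gene. Capitals mark TGACG (the core of a cAMP response element), CAGATG (an E-box of the kind that neuronal and endocrine basic helix-loop-helix factors bind) and TATAAA (the TATA box), each on either strand. For Tph1 and Insl5, which have a pair of starts in the table, the start with the lower coordinate is shown.
Chga, chr12:102554691-102554990, plus strand: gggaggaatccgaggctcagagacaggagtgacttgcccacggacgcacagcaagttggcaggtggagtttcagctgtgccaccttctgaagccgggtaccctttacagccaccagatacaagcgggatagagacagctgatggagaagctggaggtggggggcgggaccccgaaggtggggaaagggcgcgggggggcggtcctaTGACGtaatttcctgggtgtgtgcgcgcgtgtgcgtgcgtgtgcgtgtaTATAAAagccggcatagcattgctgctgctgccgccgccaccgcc
Chgb, chr2:132781392-132781691, plus strand: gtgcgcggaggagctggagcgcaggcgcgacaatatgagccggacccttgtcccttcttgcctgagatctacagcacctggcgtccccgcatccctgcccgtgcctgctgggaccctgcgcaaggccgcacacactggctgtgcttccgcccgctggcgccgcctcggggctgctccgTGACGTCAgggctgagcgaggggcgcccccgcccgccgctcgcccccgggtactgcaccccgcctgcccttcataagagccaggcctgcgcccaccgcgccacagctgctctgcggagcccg
Tph1, chr7:46667328-46667627, minus strand: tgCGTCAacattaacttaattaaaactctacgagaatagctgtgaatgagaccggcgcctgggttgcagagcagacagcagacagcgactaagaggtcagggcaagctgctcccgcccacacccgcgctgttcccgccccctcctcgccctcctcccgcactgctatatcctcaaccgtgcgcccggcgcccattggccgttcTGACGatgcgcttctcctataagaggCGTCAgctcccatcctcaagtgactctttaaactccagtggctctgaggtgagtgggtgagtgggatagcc
Sst, chr16:23890795-23891094, minus strand: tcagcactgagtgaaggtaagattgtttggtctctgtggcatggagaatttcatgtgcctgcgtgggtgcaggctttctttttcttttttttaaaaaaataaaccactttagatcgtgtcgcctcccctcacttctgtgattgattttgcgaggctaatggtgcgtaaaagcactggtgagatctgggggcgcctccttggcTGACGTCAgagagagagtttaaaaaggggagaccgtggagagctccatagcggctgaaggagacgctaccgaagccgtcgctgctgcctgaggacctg
Gcg, chr2:62483604-62483903, minus strand: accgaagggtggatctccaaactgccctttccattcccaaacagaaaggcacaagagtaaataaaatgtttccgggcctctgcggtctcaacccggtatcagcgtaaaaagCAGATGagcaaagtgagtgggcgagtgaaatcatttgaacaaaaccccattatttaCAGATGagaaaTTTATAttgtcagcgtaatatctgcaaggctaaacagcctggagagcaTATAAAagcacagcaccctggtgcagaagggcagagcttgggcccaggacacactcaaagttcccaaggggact
Insl5, chr4:103026679-103026978, minus strand: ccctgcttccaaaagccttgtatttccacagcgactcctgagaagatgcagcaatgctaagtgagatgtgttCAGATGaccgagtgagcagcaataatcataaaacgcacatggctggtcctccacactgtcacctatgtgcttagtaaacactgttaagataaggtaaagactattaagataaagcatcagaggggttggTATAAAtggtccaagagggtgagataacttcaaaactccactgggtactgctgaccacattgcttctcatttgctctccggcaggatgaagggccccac

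The full palindromic element TGACGTCA, which holds TGACG on both strands, was found in the Chgb and Sst promoters and in 1.79% of 32851 promoters of the same length. The 10 genes have 13 windows in the table, since Pyy, Insl5 and Tph1 have a pair each. TGACG occurred in 7 of the 13, in Chga, Chgb, Tph1, Cck, Nts and Sst, against 20.8% of all promoters. The Tph1 window shown had 3 of them. CAGATG occurred in 4 of the 13, in Gcg, Insl5, Sct and Cck, against 17.2%, and the Gcg window had 2. TATAAA occurred in 5 of the 13, in Chga, Gcg, Insl5 and Sct, against 13.6%. The Pyy windows held none of these 3 short motifs. A match is a run of letters and not a measured site.

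The first question was whether colonization for 14 days altered the hormone genes in germ-free mice. In the libraries labelled Ern2-/-, both chromogranin genes, Tph1, Gcg and Sst were higher after colonization, and of the 3 L cell genes Gcg alone was called. The DESeq2 Wald test, which called a gene at an adjusted p under 0.01, called 5 of the 10 genes, all higher, namely Chga, Chgb, Tph1, Gcg and Sst. It called 7.17% of 13943 genes tested in that comparison and called 3.60% higher. The median log2 change of the 10 genes was 1.38, against -0.02 over all genes tested. Ranges of the 2 groups did not overlap for 5 of the 10 genes, as for 33.1% of all genes tested. Muc2 was apart between these groups too, at 9756 to 39100 normalized counts in GF-Ern2-/- and 59339 to 119239 in COLONIZED-Ern2-/-. So was the sum of enteric neuron and glia genes, at 67.2 to 73.8 and 91.3 to 155. Their part in the result was not tested.

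Chga was at 186, 273 and 141 normalized counts in GF-Ern2-/- and at 886, 1653 and 492 in COLONIZED-Ern2-/-. Its log2 change was 2.33 ± 0.42 (SE, adjusted p = 2.3e-06 with DESeq2). Chgb was at 300, 340 and 300 before and at 1782, 3867 and 992 after, a log2 change of 2.82 ± 0.41 (adjusted p = 2.4e-09). For both granule genes every colonized library lay above every germ-free one, and replicate 2 was the highest of the colonized libraries. Tph1 was at 25.4, 35.1 and 71.9 in GF-Ern2-/- and at 331, 728 and 202 in COLONIZED-Ern2-/-, a log2 change of 3.25 ± 0.50 (adjusted p = 1.8e-08). These 3 changes kept their call when any 1 of the 6 libraries was dropped.

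Gcg rose from 270, 419 and 287 normalized counts to 928, 1000.4 and 478, a log2 change of 1.30 ± 0.33 (SE, adjusted p = 0.0015 with DESeq2). Sst rose from 44.7, 69.2 and 52.1 to 118, 210 and 129, a log2 change of 1.46 ± 0.35 (adjusted p = 0.00076). The groups were apart for both, but the call of Gcg held in 2 of the 6 fits without 1 library and that of Sst in 4 of 6. Without GF-Ern2-/- replicate 1 or COLONIZED-Ern2-/- replicate 2 both were lost, which left 3 genes called (with 5.62% and 3.42% of all genes). Pyy, at 356, 394 and 228 before and 734, 451 and 373 after, and Insl5, at 297, 437 and 227 before and 692, 145 and 210 after, overlapped between the groups and were not called. Nts, which gut N cells make, was at 2.98, 147 and 22.9 before and at 156, 340 and 141 after. GF-Ern2-/- replicate 2, the library with the highest sum of small intestine markers, was the high one for Nts and, at 388 against 20.9 and 70.9, for Sct. Without it 7 of the 10 genes and 10.4% of all genes were called, with Nts at a log2 change of 4.07 ± 1.03 (adjusted p = 0.0013) and Sct at 1.80 ± 0.52 (adjusted p = 0.0058) in addition. GF-Ern2-/- replicate 2 was singled out in part by its values of Nts and Sct. Their p-values without it, here and for CONV against GF below, are thus descriptions only.

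In WT mice the same comparison called Sst alone among the 10 genes, where DESeq2 called 18.3% of 13635 genes and called 9.35% higher. All 10 log2 changes were above 0, with a median of 0.66 against -0.01 over all genes tested, and the groups were apart for 2 of the 10 genes and for 46.6% of all. Sst was at 46.1, 65.8 and 68.0 normalized counts in GF-WT and at 93.4, 160 and 148 in COLONIZED-WT, a log2 change of 1.16 ± 0.29 (SE, adjusted p = 0.00073). Without COLONIZED-WT replicate 2 or replicate 3 it was not called (the higher adjusted p was 0.021 with DESeq2), and without COLONIZED-WT replicate 1 Gcg and Pyy were called too, 3 genes in all, with 9.22% of all genes. With a sex covariate Sst was not called either (adjusted p = 0.030) and Pyy was (adjusted p = 4.3e-05), in a comparison with Y-linked transcripts in 0 of 3 GF-WT and 2 of 3 COLONIZED-WT libraries. Pyy, at 537, 466 and 455 before and 554, 1074 and 662 after, had a log2 change of 0.66 ± 0.24 and did not pass (adjusted p = 0.026). Nts, at 2.30, 22.4 and 36.8 before and 34.9, 86.7 and 104 after, had a log2 change of 1.87 ± 0.67 and did not pass (adjusted p = 0.021).

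The WT result for Chga, Chgb and Tph1 turned on GF-WT replicate 3. Chgb went from 363, 342 and 1454 normalized counts in GF-WT to 1093, 924 and 1386 in COLONIZED-WT, with a log2 change of 0.66 ± 0.70 (SE, adjusted p = 0.51 with DESeq2). Tph1 had 17.7, 28.7 and 239 without microbes and 132, 88.1 and 156 with them, with a log2 change of 0.40 ± 1.09 (adjusted p = 0.82). Chga had 265, 282 and 750 without and 439, 605 and 814 with them, with a log2 change of 0.52 ± 0.55 (adjusted p = 0.51). In all 3 genes GF-WT replicate 3 lay within or above the colonized range and the other two germ-free libraries lay below it. Without that library DESeq2 called 5 of the 10 genes and 15.1% of all genes. Chgb then had a log2 change of 1.70 ± 0.20 (adjusted p = 1.2e-14), Tph1 of 2.44 ± 0.39 (adjusted p = 2.1e-08) and Chga of 1.19 ± 0.26 (adjusted p = 0.00012), and Nts and Sst were called too. GF-WT replicate 3 was singled out by its values of Chga, Chgb and Tph1. The p-values of these genes without it are thus descriptions and no support for a change.

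Whether the response to colonization differed between the genotype labels was tested by an interaction term. None of the 10 genes was called by DESeq2, which called 0.0280% of 17884 genes, and 3 of the 10 were under an unadjusted p of 0.05, as were 5.76% of all. With edgeR 0 of 13045 genes were called in this interaction, so its 0 among the 10 says nothing about them. The interaction was 1.82 on the log2 scale for Chga (95% interval 0.54 to 3.09, adjusted p = 0.84), 2.16 for Chgb (0.40 to 3.93, adjusted p = 0.84) and 2.85 for Tph1 (0.31 to 5.40, adjusted p = 0.84). The intervals are wide, and the calls in libraries labelled Ern2-/- are thus not shown to differ from the WT result.

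**Figure D2:**
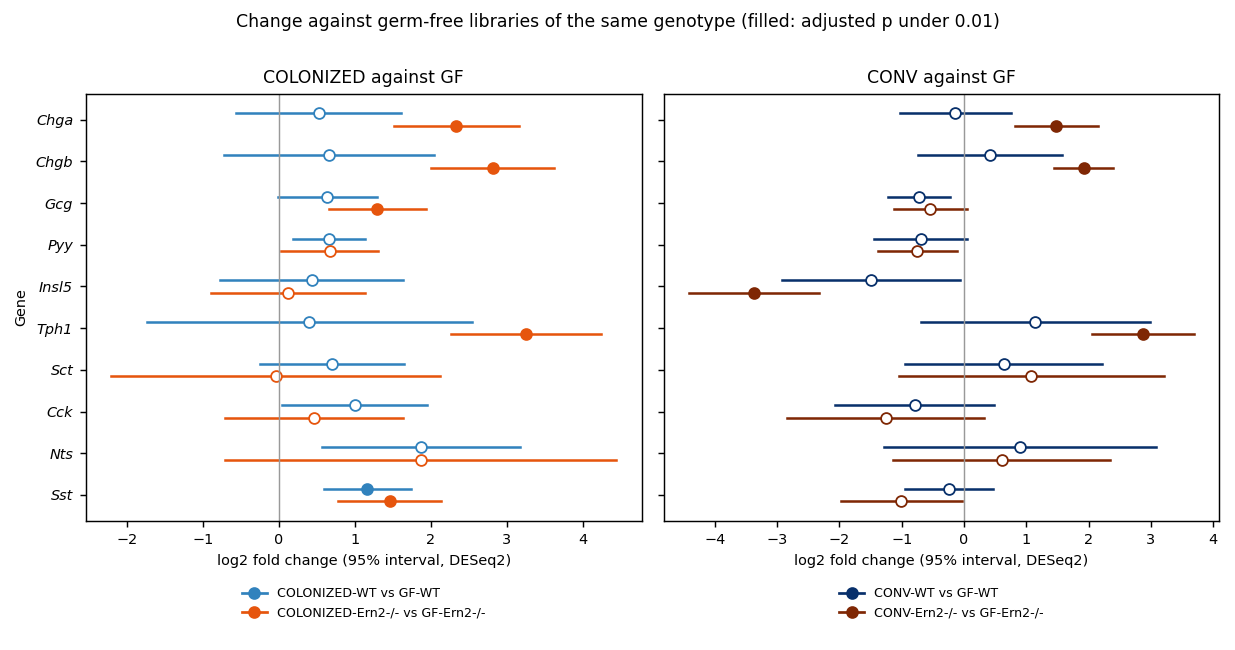
DESeq2 log2 fold changes with 95% intervals for the 10 genes, COLONIZED against GF (left) and CONV against GF (right), blue for WT and orange or brown for libraries labelled Ern2-/-, with filled points at an adjusted p under 0.01. Chga, Chgb and Tph1 are filled in both comparisons of the libraries labelled Ern2-/- and open in both WT comparisons, and each pair of comparisons of 1 genotype shares its GF libraries.

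The next question was how conventionally raised mice compared with germ-free mice. Here the hormone genes went in 2 directions, with Chga, Chgb and Tph1 higher and Insl5 lower in the CONV-Ern2-/- libraries. DESeq2 called 4 of the 10 genes in the libraries labelled Ern2-/-, 3 higher and 1 lower, where it called 4.33% of 13404 genes, 1.57% higher and 2.77% lower. The median log2 change of the 10 was 0.03, against -0.01 for all genes tested, and groups were apart for 7 of the 10 and for 24.6% of all. The GF-Ern2-/- libraries are the same as in the colonization comparison, so the values of both rest on them.

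Chga was at 650, 382 and 646 normalized counts in CONV-Ern2-/-, a log2 change of 1.48 ± 0.34 (SE, adjusted p = 0.00065 with DESeq2) from the GF-Ern2-/- values given above. Chgb was at 1293, 938 and 1338, a log2 change of 1.92 ± 0.24 (adjusted p = 6.3e-13), and Tph1 at 243, 360 and 370, a log2 change of 2.88 ± 0.42 (adjusted p = 1.9e-09). For all 3 genes every CONV-Ern2-/- library lay above every GF-Ern2-/- library. Chgb and Tph1 were called in 6 of 6 fits without 1 library and Chga in 2 of 6. A covariate for library totals took the call from Chga (adjusted p = 0.056 with DESeq2) and Tph1 (adjusted p = 0.0101), and Chga was not called with a sex covariate or in 1 fit of all 18 libraries. Chga and Chgb are made by other endocrine cells as well as enterochromaffin cells, and other genes linked to enterochromaffin cells had values in both directions. Ddc, which completes serotonin synthesis, was called lower, as given below. It was at a mean of 951 normalized counts in CONV-Ern2-/- and 2250 in GF-Ern2-/-, well above Tph1 in both groups. Which cells its transcripts came from was not tested. Of genes singled out after their values were seen, none of which was called, Lmx1a, a transcription factor of enterochromaffin cells, was at 17.0 ± 0.66 normalized counts (SD, n = 3) against 5.37 ± 3.49 in GF-Ern2-/-, and Slc18a1, an amine transporter of granules, was at 40.9 ± 7.37 against 68.6 ± 12.0.

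Insl5 was at 20.9, 64.4 and 8.28 normalized counts in CONV-Ern2-/- against 297, 437 and 227 in GF-Ern2-/-, a log2 change of -3.37 ± 0.53 (SE, adjusted p = 5.9e-08). The lowest of these values stands for 3 counts. The highest conventional library was below the lowest germ-free one, and the call held in 6 of 6 fits without 1 library. Summed distal Hox genes also did not overlap between these groups, at 168 to 1879.6 against 4303 to 8754, and their part in the Insl5 result was not tested. The other L cell genes moved less: Gcg was at 238, 258 and 174 against 270, 419 and 287, and Pyy at 179, 158 and 251 against 356, 394 and 228, and neither was called.

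Without GF-Ern2-/- replicate 2 the count was 6 of 10, with 7.14% of all genes, and it took in Sct, at a log2 change of 2.89 ± 0.51 (SE, adjusted p = 9.6e-07 with DESeq2), and Nts, at 2.79 ± 0.73 (adjusted p = 0.0027). Sct was at 309, 260 and 444 normalized counts in CONV-Ern2-/-, above 20.9 and 70.9 in GF-Ern2-/- replicates 1 and 3 but on both sides of the 388 in replicate 2.

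In WT mice no gene of the 10 was called in this comparison, where DESeq2 called 11.0% of 13874 genes. Under an unadjusted p of 0.05 were 2 of the 10 and 30.4% of all, and edgeR called 0 of the 10 and 22 of 12603 genes. Gcg, at 386, 342 and 523 normalized counts in GF-WT and 293, 239 and 230 in CONV-WT, was apart and had a log2 change of -0.72 ± 0.26 (SE, adjusted p = 0.030). Insl5 was at 566, 364 and 285 in GF-WT and at 294, 115 and 23.7 in CONV-WT, with a log2 change of -1.49 ± 0.73 (adjusted p = 0.14), and CONV-WT replicate 3 was the lowest. Without CONV-WT replicate 1, the library that overlapped GF-WT, Insl5 was the 1 gene of the 10 called, with 6.77% of all genes.

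For Chgb and Tph1 the WT result again turned on GF-WT replicate 3. Chgb was at 686, 1158 and 1066 normalized counts in CONV-WT, with a log2 change of 0.42 ± 0.59 (SE, adjusted p = 0.68 with DESeq2). Tph1 was at 78.3, 181 and 376, with a log2 change of 1.14 ± 0.94 (adjusted p = 0.44), and Chga at 331, 402 and 455, with a log2 change of -0.14 ± 0.45 (adjusted p = 0.88). Without GF-WT replicate 3 Chgb had a log2 change of 1.45 ± 0.33 (adjusted p = 0.00038) and Tph1 of 3.18 ± 0.69 (adjusted p = 0.00024), and these 2 genes were called, with 5.09% of all genes. Chga, at 0.52 ± 0.27 (adjusted p = 0.23), was not called without it either. Since GF-WT replicate 3 was singled out by its values of these genes, the p-values without it are again descriptions only. The interaction with genotype called 0 of the 10 genes with DESeq2, which called 0.177% of 13027 genes, and 0 with edgeR, which called 0 of 12900. Under an unadjusted p of 0.05 with DESeq2 were 2 of the 10 and 8.72% of all. The interaction was 1.61 for Chga (95% interval 0.46 to 2.77, adjusted p = 0.25), 1.49 for Chgb (0.17 to 2.81, adjusted p = 0.47), 1.72 for Tph1 (-0.49 to 3.94, adjusted p = 0.73) and -1.88 for Insl5 (-3.89 to 0.13, adjusted p = 0.63), all on the log2 scale with DESeq2.

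Conventional and newly colonized mice were then compared with each other. For the Ern2-/- label this also set the mice's own microbiota against one from WT donors. The study reports that stool communities of CONV-Ern2-/- mice were less diverse than those of CONV-WT mice and differed in taxa. Community and length of exposure cannot be told apart here. In the libraries labelled Ern2-/-, Gcg, Pyy, Insl5 and Sst were lower and Sct higher in CONV than in COLONIZED mice. DESeq2 called 5 of the 10 genes, 1 higher and 4 lower, where it called 8.59% of 13098 genes, 4.86% higher and 3.73% lower. The median log2 change of the 10 was -1.35 against -0.01 for all genes tested, and groups were apart for 7 of the 10 and for 35.9% of all. The sum of small intestine markers, 70.8% of which was Fabp2 over the 18 libraries, was apart between these groups too. It was 17932 to 20729 normalized counts in CONV-Ern2-/- and 4976 to 7414 in COLONIZED-Ern2-/-. The ileal genes Fabp6 and Slc10a2 overlapped between the groups. In the same order, means were 59.5 and 83.1 for Fabp6 and 541 and 306 for Slc10a2. Car1 was apart, at 263349 to 365884 and 81220.2 to 153174. The part of these genes in the result was not tested.

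With the values given above, Gcg had a log2 change of -1.84 ± 0.31 (SE, adjusted p = 3.0e-07 with DESeq2) and Pyy of -1.41 ± 0.31 (adjusted p = 0.00020). Sst was at 37.6, 20.0 and 22.1 normalized counts in CONV-Ern2-/- against 118, 210 and 129 in COLONIZED-Ern2-/-, a log2 change of -2.44 ± 0.41 (adjusted p = 2.9e-07). Each of these 3 was called in 6 of 6 fits without 1 library. Insl5, with a log2 change of -3.49 ± 0.99 (adjusted p = 0.0063), was called in 2 of 6 such fits and not with a sex covariate, and its COLONIZED-Ern2-/- libraries ranged from 145 to 692.

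Sct was at 105, 146 and 219 normalized counts in COLONIZED-Ern2-/- and at 309, 260 and 444 in CONV-Ern2-/-, a log2 change of 1.11 ± 0.32 (SE, adjusted p = 0.0073). The groups did not overlap, and the call held in 3 of 6 fits without 1 library and was lost in 1 fit of all 18 libraries. Without CONV-Ern2-/- replicate 3 or COLONIZED-Ern2-/- replicate 2 only Gcg, Pyy and Sst of the 10 were called (with 4.02% and 4.68% of all genes). Nts, at 156, 340 and 141 against 65.8, 82.2 and 116, was apart too, but its log2 change of -1.29 ± 0.40 did not pass (adjusted p = 0.013). Library totals differed between these groups, at about 14046600 to 20231800 counts in COLONIZED-Ern2-/- and 5865620 to 15419800 in CONV-Ern2-/-. With the total as a covariate 1 of the 10 genes, Sst, was called, and 261 of 12779 genes in all, against 1125 of 13098 without it.

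In WT mice none of the 10 genes was called between CONV and COLONIZED, where DESeq2 called 0.119% of 13458 genes and edgeR called 0 of 12650. Under an unadjusted p of 0.05 were 6 of the 10 and 8.98% of all, and the median log2 change was -1.16 against 0.01 for all genes tested. Sst, at 41.5, 69.1 and 42.0 normalized counts in CONV-WT against 93.4, 160 and 148 in COLONIZED-WT, was apart and had a log2 change of -1.39 ± 0.36 (SE, adjusted p = 0.027). Without CONV-WT replicate 3 Nts was the 1 gene of the 10 called (log2 change -2.83 ± 0.59, adjusted p = 0.00036), with 1.59% of all genes, and without COLONIZED-WT replicate 1 it was Gcg, with 0.119%. The L cell sum of Gcg, Pyy and Insl5 was 411 to 1022 normalized counts in CONV-WT and 1060 to 2755 in COLONIZED-WT.

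Within a library, the ratio of Gcg, Pyy and Insl5 to Chga, Chgb and Tph1 was taken as a description of the balance of these sets. Germ-free WT libraries had ratios of 2.31, 1.80 and 0.517, against 0.637, 1.70 and 0.867 after colonization and 0.934, 0.381 and 0.217 with a conventional microbiota. With the Ern2-/- label the ratios were 1.81, 1.93 and 1.45 without microbes, 0.785, 0.256 and 0.629 after colonization, and 0.200, 0.286 and 0.184 with a conventional microbiota. All 3 GF-Ern2-/- libraries were above 1, all COLONIZED-Ern2-/- and CONV-Ern2-/- libraries were below it, and COLONIZED-WT had libraries on both sides. The genes and the ratio were put together after the values had been seen, so the ratio is given with no test.

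**Figure D3:**
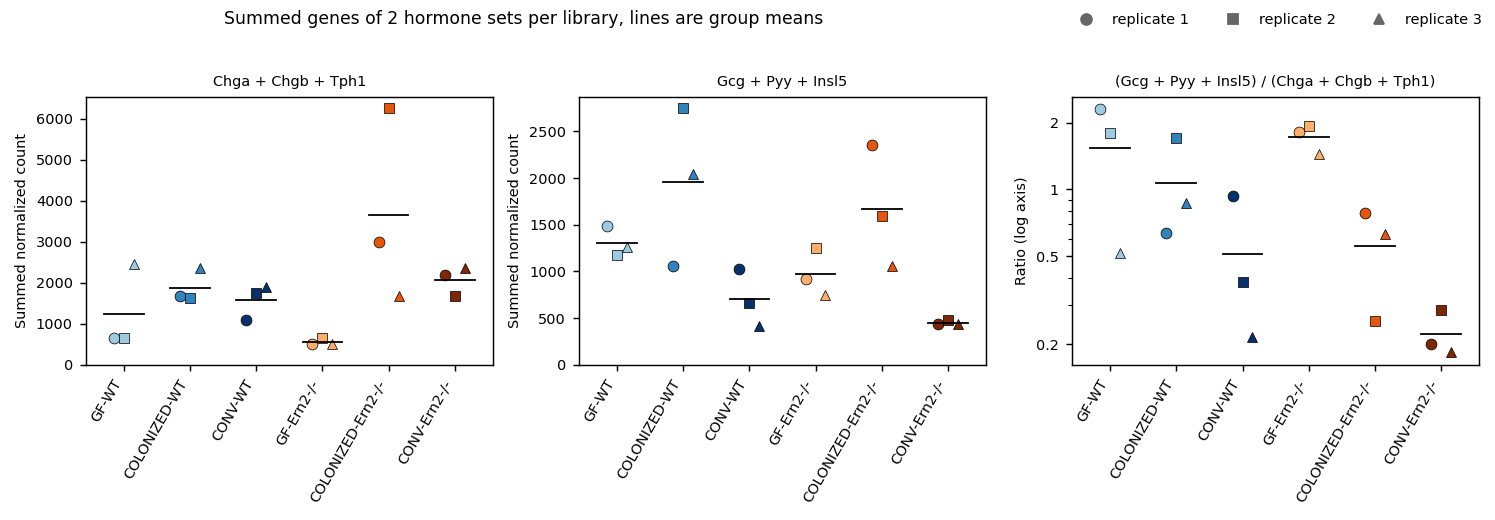
Summed normalized counts of Chga, Chgb and Tph1 (left) and of Gcg, Pyy and Insl5 (middle), and the ratio of the second sum to the first (right, log axis), for each library, with lines at the mean of 3. The first sum is 511 to 648 in GF-Ern2-/- and 1680 to 6248 in the 6 other libraries labelled Ern2-/-, and the second is 433 to 480 in CONV-Ern2-/-.

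The genotype labels were compared within each microbial state, the question being whether loss of ERN2 shifted the hormone genes. In CONV mice the microbiota also differed between genotypes according to the study, so genotype and community cannot be told apart there. DESeq2 called none of the 10 genes in any state. It called 0.0349% of 17168 genes in GF, 1.37% of 11960 in COLONIZED and 3.03% of 12625 in CONV. Under an unadjusted p of 0.05 were 3 of the 10 in GF, where 1.48% of all genes were, 2 in COLONIZED (22.3% of all) and 1 in CONV (17.3% of all). With edgeR 0 of the 10 were called in each state, but over all genes it called only 0 of 12604 in GF, 1 of 12722 in COLONIZED and 0 of 12128 in CONV. DESeq2 gave no adjusted p for Tph1 in GF libraries and for Cck in CONV libraries. In COLONIZED libraries Nts, at 34.9, 86.7 and 104 in WT and 156, 340 and 141 in those labelled Ern2-/-, was apart but did not pass (log2 change 1.50 ± 0.41, adjusted p = 0.014 with DESeq2). Without COLONIZED-Ern2-/- replicate 3 Chgb and Tph1 were called there (1.29% of all genes), and without replicate 1 of that group Nts was (5.26%).

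In CONV libraries the result turned on CONV-WT replicate 3. Insl5 was at 294, 115 and 23.7 normalized counts in CONV-WT and at 20.9, 64.4 and 8.28 in CONV-Ern2-/-, with a log2 change of -2.21 ± 0.91 (SE, adjusted p = 0.15 with DESeq2). Sct was at 36.8, 107 and 336 in CONV-WT and at 309, 260 and 444 in CONV-Ern2-/-. CONV-WT replicate 3 lay inside the CONV-Ern2-/- range for both genes, as it did for Muc2 and Car1. Without it 4 of the 10 genes were called, and the share of all genes called went from 3.03% to 12.4%. Insl5 was lower at -2.72 ± 0.70 (adjusted p = 0.0013) and Nts, at 3.02 ± 0.55 (adjusted p = 1.4e-06), Sct, at 2.23 ± 0.46 (adjusted p = 2.8e-05), and Tph1, at 1.32 ± 0.41 (adjusted p = 0.0096), were higher. CONV-WT replicate 3 was singled out by its values, those of Insl5 and Sct among them, so these p-values are descriptions only.

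All 15 calls described here were made by DESeq2, and the edgeR quasi-likelihood test made none of them at an adjusted p under 0.01. It called few genes at all in the comparisons of Ern2-/- libraries, 4 of 12318 in CONV against GF, 27 of 12519 in COLONIZED against GF and 35 of 12414 in CONV against COLONIZED, and 630 of 12761 in COLONIZED-WT against GF-WT. Its adjusted p for these 15 pairs of gene and comparison was 0.014 to 0.054, and 13 of the 15 were under 0.05. Directions were the same in both tools. Of the list genes picked for naming, up to 3 per list and comparison, edgeR kept 6 calls and lost 53, and the rest of the 61 pairs are in neither count.

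Across the 18 libraries Chga and Chgb rose and fell together, with Pearson's r of log2 values of 0.94 over all libraries and 0.90 after group means were taken out. Tph1 followed Chgb at 0.90 and 0.84. Pyy and Insl5 had an r of 0.81 and 0.63, and Gcg and Sst of 0.86 and 0.52. Tph1 and Insl5 went opposite ways, with -0.54 and -0.49. These are descriptions over libraries that share groups, and that differ in depth and in markers of colon region.

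The 11764 other genes with a mean of at least 20 normalized counts were searched for the patterns most like each hormone gene. Sct was closest to Car1 (r = 0.97 over the 18 libraries and 0.97 within groups), then to 1810065E05Rik. Car1 was at 15937 in GF-Ern2-/- replicate 1 and 374772 in replicate 2, where Sct was at 20.9 and 388. Nts was closest to Sptssb (r = 0.88), Tph1 to Txnrd1 (0.92), Chgb to Cmah (0.84) and Chga to Art2a-ps (0.80). Insl5 was closest to Nxpe2 (0.94), Pyy to Pappa2 (0.88), Gcg to Pcsk1n (0.81) and Sst to Wnt5a (0.82).

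Against genes of region and cell type that were chosen after the values were seen, Insl5 and Hoxb13 had an r of 0.91 over all libraries and 0.79 within groups. Insl5 was at 8.28, 20.9 and 23.7 in the 3 libraries in which Hoxb13 was at 80.0, 118 and 588, the lowest of the 18. With Hoxb13, Gcg had an r of 0.44 over all libraries and 0.15 within groups, Pyy of 0.58 and 0.23, and Tph1 of -0.63 and -0.38. Nts had an r with Car1 of 0.84 over all libraries and 0.95 within groups.

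**Figure D4:**
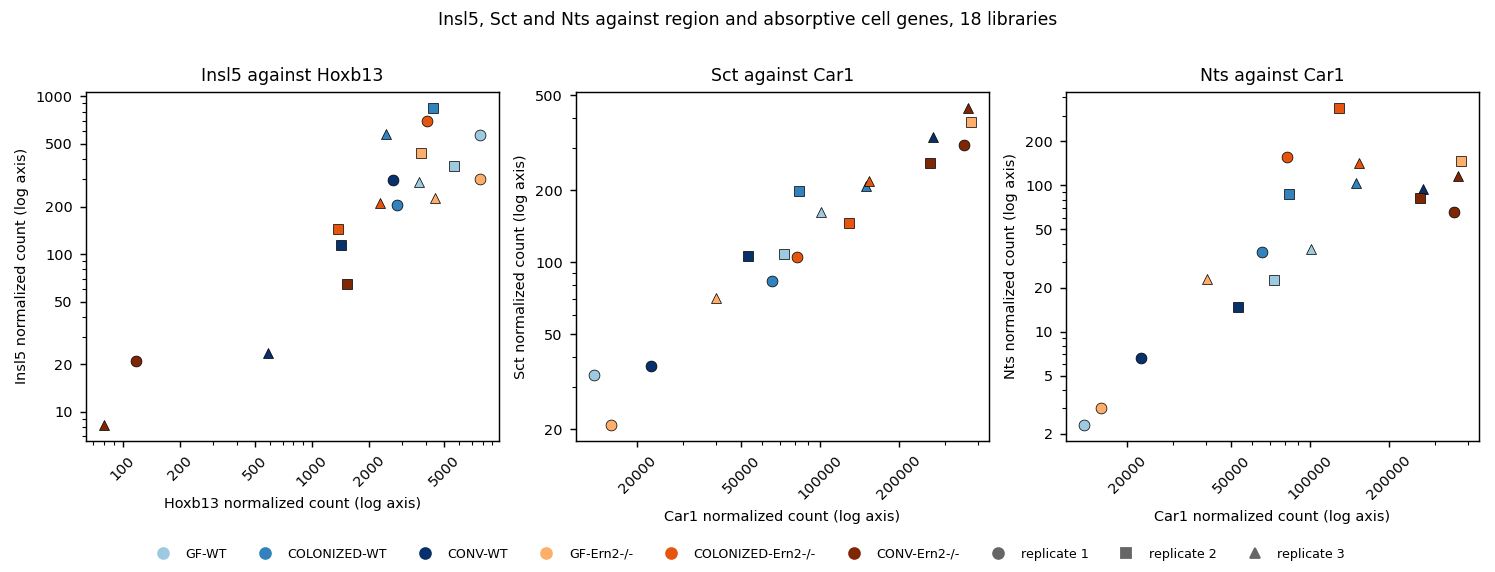
Normalized counts (log axes) of Insl5 against Hoxb13, Sct against Car1 and Nts against Car1 in 18 libraries, colored by group with a symbol for the replicate number. Sct rises with Car1 through all 6 groups, from 20.9 to 444, and Insl5 is at 64.4 or less in the 3 CONV-Ern2-/- libraries and in CONV-WT replicate 3.

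Among 20 transcription factors of the enteroendocrine lineage few passed the test. DESeq2 called 2 of 18 tested higher in COLONIZED-WT than in GF-WT, where it called 9.35% of all genes higher, with a list median of 0.56. Neurog3, the factor that commits cells to this lineage, was at 37.0 ± 8.30 normalized counts (SD, n = 3) against 14.7 ± 3.62 (log2 change 1.34 ± 0.41 SE, adjusted p = 0.0074). St18, a zinc finger factor, had a log2 change of 1.11 ± 0.36 (adjusted p = 0.0099 with DESeq2). Both calls held in 1 of 6 fits without 1 library. In COLONIZED-Ern2-/- against GF-Ern2-/- 1 of 19 was called higher (3.60% of all genes), Insm1, a zinc finger factor of endocrine differentiation, at a log2 change of 1.53 ± 0.40 (adjusted p = 0.0026 with DESeq2, called in 2 of 6 fits without 1 library), with a list median of 1.11. In CONV-Ern2-/- against GF-Ern2-/- 1 of 17 was called lower (2.77% of all genes), Foxa2, by a log2 change of -1.33 ± 0.27 (adjusted p = 7.9e-05), while the list median was 0.76.

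Few genes of hormone processing and granules passed the test. Of 21 such genes DESeq2 called 0 higher and 3 lower of 18 tested in CONV-WT against GF-WT, 0 and 2 of 18 in COLONIZED-WT, 0 and 2 of 18 in CONV-Ern2-/- and 1 and 2 of 19 in COLONIZED-Ern2-/-, each against GF of the same genotype. Of all genes 5.28%, 8.97%, 2.77% and 3.57% were called lower in these comparisons, and 3.60% higher in the last. Ddc, which encodes the decarboxylase that completes serotonin synthesis, was called lower in all 4, from -1.24 ± 0.27 (SE) in CONV-Ern2-/- to -0.70 ± 0.18 in COLONIZED-WT. Pam, which amidates peptide hormones, was called lower in all 4 as well, from -1.79 ± 0.37 to -1.12 ± 0.25, although in CONV-WT the call held in 2 of 6 fits without 1 library. The list medians were -0.39 in CONV-WT, 0.17 in COLONIZED-WT, 0.05 in CONV-Ern2-/- and 0.96 in COLONIZED-Ern2-/-. Rab3c, a vesicle GTPase, was the 1 gene called higher (log2 change 3.16 ± 0.70 in COLONIZED-Ern2-/-, adjusted p = 0.00025 with DESeq2). Scg2 was called lower in CONV-WT, at 3.83 ± 3.77 normalized counts (SD, n = 3) against 23.1 ± 3.62 in GF-WT. Ptprn2, a dense-core vesicle protein, was lower in CONV-Ern2-/- than in COLONIZED-Ern2-/- by a log2 change of -1.81 ± 0.35 (SE, adjusted p = 1.6e-05). It was the 1 call of 18 tested there, with 3.73% of all genes lower. Ptprn2 was also the 1 call, lower, of 16 tested in CONV-Ern2-/- against CONV-WT, where 247 of 12625 genes were called lower.

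Tac1, the substance P precursor that enterochromaffin cells also make, was the 1 gene called of 16 other gut hormone genes, 7 of which were tested in each of the comparisons that called it. In these DESeq2 called 3.60% of all genes higher (colonization) and 3.73% lower (COLONIZED to CONV). It was at 21.6 ± 4.22 normalized counts (SD, n = 3) in GF-Ern2-/-, 78.4 ± 19.1 in COLONIZED-Ern2-/- and 11.7 ± 7.92 in CONV-Ern2-/-. The log2 change was 1.85 ± 0.39 (SE, adjusted p = 8.3e-05 with DESeq2) on colonization and -2.65 ± 0.51 (adjusted p = 1.3e-05) from COLONIZED to CONV.

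Of 21 genes for receptors and transporters of the hormones, those called against GF were all lower. DESeq2 called 2 of 11 tested lower in CONV-WT (5.28% of all genes), 3 of 11 in COLONIZED-WT (8.97%), 5 of 10 in CONV-Ern2-/- (2.77%) and 3 of 12 in COLONIZED-Ern2-/- (3.57%). The list medians were -0.76, -0.40, -1.81 and -0.34 in that order. In CONV-Ern2-/- against COLONIZED-Ern2-/- 5 of 9 were called lower (3.73% of all genes). Slc6a4, the serotonin transporter that clears serotonin into epithelial cells, stood at 722 ± 128 normalized counts (SD, n = 3) in GF-WT and fell to 251 ± 69.0 after colonization and 97.3 ± 33.1 in CONV-WT. With the Ern2-/- label it was at 709 ± 321, 217 ± 70.0 and 59.7 ± 18.0. Its log2 change from GF was -1.52 ± 0.23 (SE) and -2.88 ± 0.31 in WT and -1.71 ± 0.36 and -3.55 ± 0.40 in those labelled Ern2-/-, and all 4 were called in every fit without 1 library. Sstr1, a somatostatin receptor, fell in all 4 comparisons too, from 1664 ± 409 in GF-WT to 188 ± 112 in CONV-WT (log2 change -3.15 ± 0.50) and from 1360.5 ± 701 in GF-Ern2-/- to 166 ± 25.2 in CONV-Ern2-/- (-3.04 ± 0.42). Npy1r, a receptor for peptide YY and neuropeptide Y, was at 86.4 ± 38.7 in GF-Ern2-/- and 5.84 ± 5.80 in CONV-Ern2-/- (log2 change -3.66 ± 0.70, adjusted p = 1.9e-05 with DESeq2).

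Sensors of nutrients and microbial products moved in both directions. Of 11 tested, DESeq2 called 1 higher and 1 lower in CONV-WT against GF, where 5.68% of all genes were higher and 5.28% lower. Both COLONIZED groups had 3 higher and 2 lower of 11, against 9.35% and 8.97% of all genes in WT and 3.60% and 3.57% in Ern2-/-. CONV-Ern2-/- had 1 higher and 2 lower of 8 tested, against 1.57% and 2.77% of all. Ffar2, a receptor for short-chain fatty acids that L cells carry, stood at 268 ± 99.1 normalized counts (SD, n = 3) in GF-WT and rose to 671 ± 133 after colonization and 977 ± 205 in CONV-WT. Libraries labelled Ern2-/- had 191 ± 83.0 in GF, 388 ± 71.9 in COLONIZED and 182 ± 25.9 in CONV, and the first step was not called. Ffar2 was called lower in CONV-Ern2-/- than in COLONIZED-Ern2-/- (log2 change -1.09 ± 0.24) and in COLONIZED-Ern2-/- than in COLONIZED-WT (-0.80 ± 0.20, called in 2 of 6 fits without 1 library). In CONV-Ern2-/- it was lower than in CONV-WT by a log2 change of -2.42 ± 0.26 (SE, adjusted p = 5.7e-16 with DESeq2). Ffar3, the related receptor, rose from 17.6 ± 5.51 in GF-Ern2-/- to 97.8 ± 20.5 in CONV-Ern2-/- (log2 change 2.48 ± 0.44, adjusted p = 3.1e-06). Ptger3, a prostaglandin E receptor, was called lower in all 4 comparisons with GF, from -2.62 ± 0.41 in CONV-Ern2-/- to -1.90 ± 0.36 in CONV-WT.

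An enteroendocrine signature that the study took from published single-cell work held 164 genes besides members, of which few passed the DESeq2 test. In COLONIZED-Ern2-/- against GF-Ern2-/- 6 of 146 tested were higher and 3 lower (3.60% and 3.57% of all genes), with a median log2 change of 0.59. In CONV-Ern2-/- 3 of 128 were higher and 5 lower (1.57% and 2.77% of all), with a median of 0.33. In WT mice 10 of 135 were higher and 4 lower in COLONIZED (9.35% and 8.97% of all), with a median of 0.27, and 10 of 138 higher and 7 lower in CONV (5.68% and 5.28% of all), with a median of 0.07. In CONV-Ern2-/- against COLONIZED-Ern2-/- 4 of 126 were higher and 8 lower (4.86% and 3.73% of all), with a median of -0.35. Between the genotype labels in CONV, 2 of 116 were higher in CONV-Ern2-/- and 5 lower (136 and 247 of 12625 genes), with a median of -0.12. Celf3, an RNA-binding protein of neuroendocrine cells, was at 11.7 ± 2.32 normalized counts (SD, n = 3) in GF-Ern2-/- and 67.3 ± 8.13 in COLONIZED-Ern2-/- (log2 change 2.52 ± 0.42 SE, adjusted p = 1.9e-07 with DESeq2).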

How the data were processed

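Colon crypts were sequenced as stranded mRNA libraries. The authors aligned reads with STAR within the VIPER pipeline, on mm10 per the submitters' processing notes, and deposited raw counts per gene symbol, neither normalized nor pooled. Versions are not given in the sources used here.

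The 10 genes and all lists were chosen with earlier results of these data known. Counts of 24047 genes were scaled by DESeq2 1.42.0 size factors over 18 libraries (normalized counts). Each comparison was fitted on its own 6 libraries (12 for interactions) with the DESeq2 Wald test in R 4.3.3, Benjamini-Hochberg adjustment over all genes tested and a call at an adjusted p under 0.01. Fold changes were not shrunken. The genes named were all 10, and from each other list up to 3 called genes per comparison with the lowest adjusted p. Alternatives were edgeR 4.0.16, TMM factors, a filter of 10 counts in 3 libraries, no independent filter, 1 fit of all 18 libraries, covariates for replicate, sex and library total, and each library left out. On counts simulated for CONV-WT against GF-WT (17134 genes, 200 changed), DESeq2 called 161, of which 28 were false, and recovered 42% of 2-fold and 91% of 4-fold changes. edgeR called 56 with 0 false, and recovered 0% and 56%. Coordinates are from GENCODE on GRCm38 and promoters from RefSeq on GRCm38.p6. Library totals were about 5865620 to 23154500 counts. For each of the genes with a mean of at least 50 normalized counts, the 3 genes of most similar pattern were searched for, of which the closest is named (for Sct the closest 2) and the others are not reported here.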

Additional observations from a re-analysis of the deposited data

Results flagged for a closer look

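Of the genes in the lists other than the sex markers, 2 had a response to a conventional microbiota that differed between the genotype labels by the DESeq2 interaction term, 1 of 123 signature genes tested and 1 of 8 secretory lineage genes, where 0.177% of 13027 genes were called. Of 5 sex markers 3 were called there as well, and Y-linked transcripts were present in 0 of 3 GF-WT, 1 of 3 CONV-WT, 2 of 3 GF-Ern2-/- and all 3 CONV-Ern2-/- libraries. With a sex covariate the interaction was -1.53 for Rasd1, which was then not called, and -2.61 for Gfi1, which was called. From GF to CONV the number of libraries with Y-linked transcripts rose equally under both genotype labels. The covariate could therefore hardly move these estimates, and it does not decide the part of sex. Without the sex covariate, Rasd1, of the enteroendocrine signature, had an interaction of -1.53 ± 0.35 on the log2 scale (SE, adjusted p = 0.0072; edgeR adjusted p = 0.43), and was called in 3 of 12 fits without 1 library. It was at 380.3 ± 87.8 normalized counts (SD, n = 3) in GF-WT, 513 ± 45.8 in CONV-WT, 315 ± 67.3 in GF-Ern2-/- and 149.7 ± 24.8 in CONV-Ern2-/-. Gfi1, a transcription factor of secretory cells that was on the secretory lineage list and was singled out after its value was seen, had an interaction of -2.61 ± 0.41 (SE, DESeq2 adjusted p = 2.9e-06; edgeR adjusted p = 0.14), and was called in 12 of 12 such fits. It was at 168 ± 16.0 normalized counts (SD, n = 3) in GF-WT, 428 ± 146 in CONV-WT, 130.2 ± 26.5 in GF-Ern2-/- and 54.2 ± 4.05 in CONV-Ern2-/-.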

How the results depend on the processing

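The 15 calls among the 10 genes kept their direction in all settings tried, and kept an adjusted p under 0.01 for 15 of 15 with TMM factors, the low-count filter, no independent or Cook's filter and the replicate block, 13 with all 18 libraries in 1 fit, 12 with a sex covariate, 9 with the library total as a covariate and 0 with edgeR. With edgeR the number of the 10 genes called went to 0 in COLONIZED-WT against GF-WT (from 1), in CONV-Ern2-/- against GF-Ern2-/- (from 4), in COLONIZED-Ern2-/- against GF-Ern2-/- (from 5) and in CONV-Ern2-/- against COLONIZED-Ern2-/- (from 5). Over all genes its calls there were 630, 4, 27 and 35, against 2498, 581, 1000 and 1125 with DESeq2. With the library total it was 2 in COLONIZED-WT against GF-WT, 2 in CONV-Ern2-/- against GF-Ern2-/- (Chga and Tph1 lost), 2 in CONV-WT against COLONIZED-WT (from 0) and 1 in CONV-Ern2-/- against COLONIZED-Ern2-/-. All genes called were then 1307, 108, 748 (from 16) and 261. With the sex covariate it was 1 in place of 0 in CONV-WT against GF-WT (Insl5), in COLONIZED-Ern2-/- against COLONIZED-WT (Tph1) and in CONV-Ern2-/- against CONV-WT (Sct), with 922, 123 and 237 of all genes called, and in CONV-Ern2-/- against COLONIZED-Ern2-/- Insl5 was lost and Chgb gained (623 of all). The cause was not tested.

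Replicate numbers did not pair the libraries: in 0 of 9 comparisons was every correlation of same-numbered deviations over 0.1 (range -0.26 to 0.61), and in 0 did every library correlate best with its own number. With the replicate block 2 genes were called in CONV-WT against GF-WT (from 0, Insl5 and Tph1 gained), 2 in COLONIZED-WT against GF-WT (from 1), 6 in COLONIZED-Ern2-/- against GF-Ern2-/- (from 5) and 1 in COLONIZED-Ern2-/- against COLONIZED-WT (from 0), each of these 3 with Nts gained. All genes called were 1275, 2272, 959 and 185 in that order.

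Without 1 library, the number called ran from 0 to 2 in CONV-WT against GF-WT, 0 to 5 in COLONIZED-WT against GF-WT, 3 to 6 in CONV-Ern2-/- against GF-Ern2-/-, 3 to 7 in COLONIZED-Ern2-/- against GF-Ern2-/-, 0 to 1 in CONV-WT against COLONIZED-WT, 3 to 5 in CONV-Ern2-/- against COLONIZED-Ern2-/-, 0 to 2 in COLONIZED-Ern2-/- against COLONIZED-WT, 0 to 4 in CONV-Ern2-/- against CONV-WT, and was 0 in GF-Ern2-/- against GF-WT and both interactions. In the same order, 4.31% to 20.8%, 9.22% to 20.2%, 1.90% to 7.14% and 3.42% to 10.4% of all genes were called. Then came 0.00597% to 1.59%, 3.29% to 18.4%, 0.617% to 5.26% and 0.989% to 12.4%. The highest share was 0.0762% in GF-Ern2-/- against GF-WT, 2.23% in the CONV interaction and 0.130% in the COLONIZED interaction. The COLONIZED interaction without GF-WT replicate 2 gave no adjusted p for any of the 10 genes, so its 0 says nothing. Among the uncalled changes printed above, these turned sign. Chga in CONV-WT against GF-WT was 0.031 with the replicate block and -0.40 to 0.52 without 1 library. Insl5 in that comparison was 0.083 with the library total. Tph1 in COLONIZED-WT against GF-WT was -0.11 with the sex covariate and -0.092 to 2.44 without 1 library. Tph1 in the CONV interaction was -0.30 to 2.42 without 1 library. Changes not printed above did so too, such as Sct (0.64, and -0.51 to 1.16 without 1 library) and Nts (0.89, and -0.95 to 1.63) in CONV-WT against GF-WT. Few counts limit Cck in all groups, Insl5 in CONV-Ern2-/- replicate 3, the library with the lowest total, and Nts in GF-WT replicate 1, which is among the deeper ones.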
